A study of Mus musculus with 22 samples.

Results

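Genes for the transferases that attach glucuronic acid, sulfate or glutathione to drugs and hormones were examined in mouse liver after diclofenac. Genes were taken by symbol where a probe set of their own measured them: Ugt1, Ugt2 or Ugt3 followed by a letter, Sult followed by a digit, Gst followed by a, k, m, o, p, t or z and a digit, and Mgst followed by a digit. This gave 46 genes of the 18194 measured, with 59 probe sets of 34958. There were 10 UDP-glucuronosyltransferases (UGT, 12 probe sets), 13 sulfotransferases (SULT, 15 probe sets) and 23 glutathione transferases (GST, 32 probe sets, with the membrane-bound Mgst genes).

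Conjugation makes a compound more soluble and prepares it for export into bile or urine. Glucuronosyltransferases lie in the endoplasmic reticulum and use UDP-glucuronic acid, cytosolic sulfotransferases use the activated sulfate PAPS, and glutathione transferases join glutathione to reactive, electron-poor compounds. Diclofenac, a non-steroidal anti-inflammatory drug, is in part cleared as an acyl glucuronide, which can bind to proteins, and its reactive oxidised metabolites are trapped by glutathione. Genes of these classes are known to be induced through the xenobiotic receptors AhR, CAR and PXR and through NRF2, and several are known to be repressed in liver during inflammation.

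Male C57BL6 mice, 8 weeks of age, received diclofenac sodium at 30 mg/kg by injection into the peritoneum each day, or saline in its place. Livers were taken at day 1, day 3 or day 14, and arrays covered 3 diclofenac and 3 saline livers at day 1, the same numbers at day 3, and 5 of each at day 14. No allele or second agent is named in the labels of any group. The labels state 5 mice per group and the methods 6, so that the livers analysed here may be a part of those treated. RNA of whole liver was measured on Affymetrix Mouse 430 2.0 arrays, 1 array per mouse, as MAS5 signals, which are relative brightness values without a unit.

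Median signals of the arrays were 75.2 to 89.9, and arrays of 1 group correlated at 0.876 to 0.922 in diclofenac livers of day 14 and at 0.899 to 0.926 in the other groups. The 18S RNA control probe sets averaged 11.7 to 12.4 on the log2 scale at day 1, 14.5 to 14.8 at day 3 and 15.1 to 16.1 at day 14, so that the day and the handling of its arrays cannot be told apart, and each diclofenac group was set against the saline livers of its own day. Defining genes of hepatocytes were measured in every array, with a summed signal of 6 markers (Alb, Ttr, Apoa1, Cps1, Tat and Fgb) of 270046 to 605550.0 in diclofenac livers and 269134 to 523912 in saline livers. A pair of diclofenac livers stood apart, replicate 2 of day 1 and replicate 3 of day 14, and for most members named below the day 1 or day 14 difference without them is given. Both were picked after the values were seen and were the lowest of their group in most members. P-values from fits without them describe the data and are no separate test. In these livers the summed signal of 8 neutrophil markers was 25702 and 24393, against at most 3528 in the other 9 diclofenac livers and at most 1088 in the saline livers.

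Some groups of members lay in clusters in the genome. On RefSeq positions of GRCm38.p6, 11 lay on chromosome 5 (8 Ugt2 genes with Sult1b1, Sult1d1 and Sult1e1), 8 on chromosome 3 (7 Gstm genes and Mgst2) and 5 on chromosome 10 (the Gstt genes and Sult3a1). Mgst2 lay far from the Gstm genes, and Sult3a1 far from the Gstt genes. Promoter windows of 250 bases before the annotated start were found for 41 members and were searched on both strands for the antioxidant response element of NRF2 (TGACNNNGC), the xenobiotic response element of AhR (TNGCGTG) and a C/EBP motif (TTGCNNAA). In 4 members the first motif was present (Gsta3, Gstm5, Gstm7 and Mgst1), 9.76% against 11.5% of the 27025 genes with a window. The second was present in 2 members (Gsta2 and Sult1d1), 4.88% against 4.76% of all genes. The third was present in 8 members, 19.5% against 10.8% of all genes. None of the member windows had overlapping motifs, and a match describes the letters only and is not a measured site.

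The windows of 4 members are shown, from RefSeq on GRCm38.p6 and 5′ to 3′ on the strand of the gene, since they belong to members on which the results below turn: Gsta2 and Ugt2b1, whose diclofenac livers all lay below the saline livers at days 1 and 14, Gstm5, whose diclofenac livers all lay above them at day 14, and Sult1e1, with the largest mean difference upwards. Gsta4, which went with Gsta2, has no window. Capitals mark the xenobiotic response element in Gsta2 (chr9:78347146-78347395, minus strand) and the antioxidant response element in Gstm5 (chr3:107895604-107895853, plus strand). The RefSeq span of the Gsta2 gene reaches to 78347192, so that the 3′ end of its window, with the marked motif, lies inside that span. The windows of Ugt2b1 (chr5:86926504-86926753, minus strand) and Sult1e1 (chr5:87591612-87591861, minus strand) hold no match to the motifs searched.
Gsta2: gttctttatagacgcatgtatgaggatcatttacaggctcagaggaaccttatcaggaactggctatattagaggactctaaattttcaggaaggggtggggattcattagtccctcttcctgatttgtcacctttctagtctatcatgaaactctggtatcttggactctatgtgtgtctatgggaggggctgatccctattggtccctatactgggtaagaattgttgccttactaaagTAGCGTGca
Gstm5: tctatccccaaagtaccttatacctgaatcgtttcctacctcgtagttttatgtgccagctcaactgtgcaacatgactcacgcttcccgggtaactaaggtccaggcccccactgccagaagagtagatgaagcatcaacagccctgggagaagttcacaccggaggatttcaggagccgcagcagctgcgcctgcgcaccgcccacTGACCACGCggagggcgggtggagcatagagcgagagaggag
Ugt2b1: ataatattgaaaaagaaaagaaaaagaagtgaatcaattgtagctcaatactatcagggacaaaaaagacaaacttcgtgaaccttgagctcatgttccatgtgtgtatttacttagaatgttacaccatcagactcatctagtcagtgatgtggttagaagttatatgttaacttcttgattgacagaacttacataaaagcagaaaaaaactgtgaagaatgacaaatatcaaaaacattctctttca
Sult1e1: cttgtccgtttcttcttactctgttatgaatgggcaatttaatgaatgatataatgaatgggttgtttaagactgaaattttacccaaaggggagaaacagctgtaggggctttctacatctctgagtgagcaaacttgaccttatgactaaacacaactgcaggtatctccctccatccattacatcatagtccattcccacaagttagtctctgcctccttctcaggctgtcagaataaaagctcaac

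At day 1 most transferases had a lower mean signal in diclofenac livers than in saline livers, at day 3 the difference had no common direction, and at day 14 most were lower again. No member passed the test, a Benjamini-Hochberg adjusted p under 0.05 over all genes tested in limma, on any day. Of all genes tested, 0% passed at day 1 (12884 genes), 0.202% at day 3 and 0% at day 14 (11884 genes). A gene was tested where its signal lay above the median of the array in at least 3 arrays, which 36 members did at days 1 and 3 and 37 at day 14. In bulk liver RNA, fewer cells of a type and less RNA per cell cannot be told apart.

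At day 1 the mean difference was below 0 for 29 of 36 members, with a median log2 difference of -0.33, against 0.00 over all genes tested. Their unadjusted limma p was under 0.05 for 17 of 36 (47.2%), all lower with diclofenac, against 13% of all genes tested and 6.34% in the lower direction. At day 3 this held for 2 of 36 members (5.56%, Gstm3 higher and Ugt2b38 lower), against 10.8% of all genes (5.84% higher and 5.01% lower). At day 14 it held for 9 of 37 (24.3%, 7 lower and 2 higher), against 10.8% of all genes (5.02% lower and 5.81% higher), and 31 of 37 members had a difference below 0 with a median of -0.44, against 52.2% below 0 and a median of -0.01 over all genes tested. Replicate 2 of day 1 and replicate 3 of day 14 carried much of this, since without them the median of members was -0.14 at day 1 (31 of 36 below 0) and -0.13 at day 14 (25 of 37 below 0). The smallest adjusted p of a member was 0.251 at day 1, 0.169 at day 3 and 0.152 at day 14 (limma).

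The glucuronosyltransferases and glutathione transferases were lower in median at days 1 and 14. The median log2 difference at day 1 was -0.38 for 10 UGT genes, -0.18 for 6 SULT genes and -0.32 for 20 GST genes. At day 3 the medians were -0.09, -0.05 and 0.08 in the same order of classes. At day 14 they were -0.41 for 10 UGT, -0.17 for 7 SULT and -0.47 for 20 GST genes. Sulfotransferases were the class with both directions, since 3 of 6 were below 0 at day 1 and 4 of 7 at day 14, against 9 of 10 UGT genes on both days and 17 and 18 of 20 GST genes. Without replicate 2 of the day 1 diclofenac group the day 1 medians were -0.14 for UGT, -0.18 for SULT and -0.0767 for GST genes. Without replicate 3 of the day 14 diclofenac group the day 14 medians were -0.0439 for UGT, 0.20 for SULT and -0.19 for GST genes, so that the SULT median turned upwards. The difference between classes was not tested, and the direction of the SULT median at day 1 changed with the filter on low signals.

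**Figure D1:**
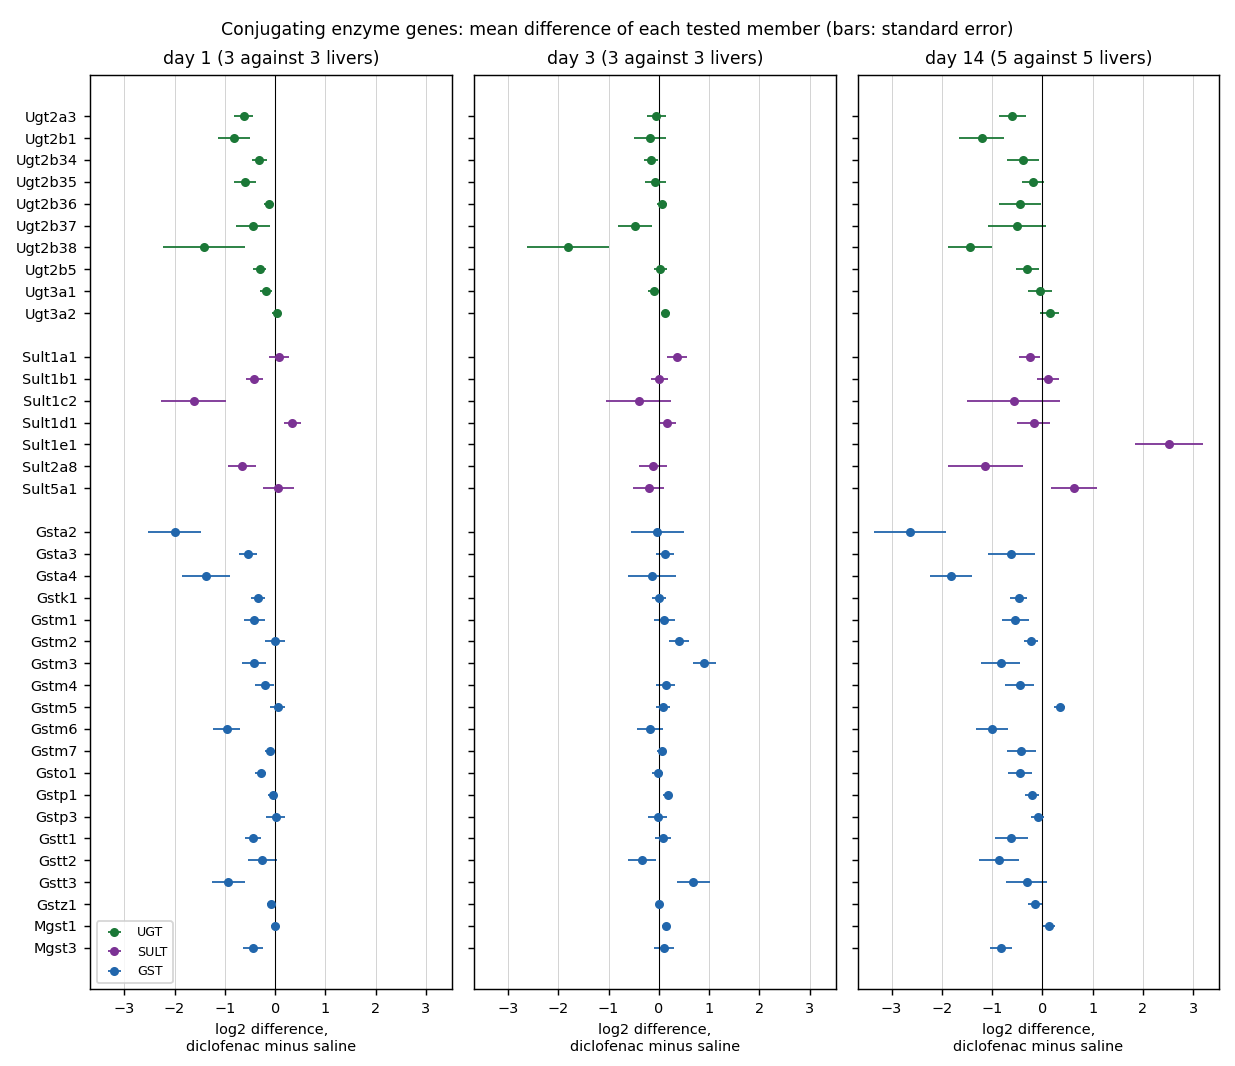
Mean log2 difference between diclofenac and saline livers (horizontal axis) for each tested member (1 row each, grouped by class) at day 1, day 3 and day 14. Bars show 1 standard error from limma to either side. Most points lie left of 0 at days 1 and 14, and at day 3 they lie on both sides.

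Livers of the 2 groups did not overlap for 9 of 36 members at day 1 (25%), all lower with diclofenac: Ugt2b1, Ugt2b35, Sult2a8, Gsta2, Gsta3, Gsta4, Gstm6, Gsto1 and Gstt3. Of all genes tested, 16.3% did not overlap on that day, 8.1% in the lower direction. At day 3 there were 5 of 36 (13.9%, against 20% of all genes, 10.8% higher and 9.21% lower), with Sult1a1, Gstm3 and Mgst1 (the last not with quantile normalization) higher and Sult1c2 and Sult2a8 lower. At day 14 there were 4 of 37 (10.8%, against 3.78% of all genes, 2.18% higher and 1.6% lower), with Gstm5 higher and Ugt2b1, Gsta2 and Gsta4 lower. For 3 against 3 livers the smallest two-sided exact permutation p is 0.1, and for 5 against 5 it is 0.00794.

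Among the glucuronosyltransferases, Ugt2b1 was lower in every diclofenac liver than in every saline liver at days 1 and 14. Its rat counterpart forms the acyl glucuronide of diclofenac, as UGT2B7 does in humans. At day 1 its signal was 29468, 8814 and 22921 in diclofenac livers, against 32272, 29793 and 34170.0 in saline livers. At day 14 it was 12803, 12496, 2691, 20225 and 17333 in diclofenac livers, against 24279, 23212, 24249, 26847 and 27351 in saline livers. The livers did not overlap on either day, and the lowest diclofenac livers were replicate 2 of day 1 and replicate 3 of day 14. The log2 difference was -0.82 at day 1 (standard error 0.32, adjusted p = 0.338), -0.17 at day 3 (adjusted p = 0.892) and -1.21 at day 14 (standard error 0.44, adjusted p = 0.365, limma). At day 3, the livers overlapped, with 30542, 23583 and 37369 in diclofenac and 31662, 34685 and 35138 in saline livers. Without replicate 3 of the diclofenac group, a liver picked after the values were seen, the day 14 difference was -0.71 (adjusted p = 0.0336, limma), past the threshold. Without replicate 2 of day 1 the day 1 difference was -0.30.

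Ugt2b38, a gene of the same cluster, had the largest mean difference of the class at each of the 3 days, -1.41, -1.81 and -1.44 (adjusted p = 0.483, 0.444 and 0.274, limma). Its signal at day 3 was 295, 222 and 913 in diclofenac livers, against 898, 1035 and 2774 in saline livers. Day 14 signals were 255, 189, 386, 276 and 208 in diclofenac livers and 698, 196, 1062, 856 and 1257 in saline livers. Saline livers themselves differed several fold, and 1 saline liver of day 14 lay among the diclofenac livers. Without replicate 2 of the diclofenac group the day 1 difference of Ugt2b38 was -0.57. Averaged over the 3 days the log2 difference was -1.55 (standard error 0.41, adjusted p = 0.0597, limma), the smallest adjusted p of any member in that comparison, in which 1.68% of 13340 genes passed and no member did.

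The bright signals of Ugt2b5 and Ugt2b36, other steroid- and drug-conjugating enzymes of liver, differed less. At day 14 Ugt2b36 had 32950.3, 25548, 5885, 32835 and 33355 in diclofenac livers, against 32749, 29304, 26496, 29094 and 33924 in saline livers. Replicate 3 alone lay far below the rest, and the other 4 diclofenac livers lay in or near the range of saline. The log2 difference was -0.44 at day 14 (adjusted p = 0.708), -0.12 at day 1 and 0.06 at day 3 for Ugt2b36, and -0.30, -0.31 and 0.03 for Ugt2b5 in the same order (limma). With quantile normalization the day 3 differences were -0.0633 for Ugt2b36 and -0.13 for Ugt2b5. Without replicate 3 the day 14 differences were 0.0374 for Ugt2b36 and -0.0618 for Ugt2b5, and without replicate 2 of day 1 those of day 1 were -0.0168 and -0.13. Ugt2b35 was lower at day 1 without overlap, with 13599, 6175 and 10248 in diclofenac livers against 15957, 13601 and 13798 in saline livers, where the highest diclofenac and the lowest saline liver were nearly level. Its log2 difference was -0.60 at day 1, -0.07 at day 3 and -0.19 at day 14 (adjusted p = 0.321, 0.938 and 0.771, limma). Without the same livers the Ugt2b35 differences were -0.29 at day 1 and 0.0426 at day 14. Of the remaining 5, Ugt2a3, Ugt2b34 and Ugt2b37 had differences of -0.31 to -0.63 at day 1 and -0.38 to -0.60 at day 14, while Ugt3a1, which uses N-acetylglucosamine, and Ugt3a2, whose human counterpart uses glucose, stayed between -0.18 and 0.14 on all days.

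The Ugt1a genes share their last exons and had no probe set of their own. The 3 probe sets that several Ugt1a genes share had log2 differences of -0.06 to -0.00 at day 1, 0.04 to 0.12 at day 3 and -0.18 to -0.13 at day 14, and none of them passed (limma on 25661 probe sets at days 1 and 3, of which 0% passed at day 1 and 0.0818% at day 3, and on 24550 at day 14, of which 0% passed). These sums over isoforms do not tell which Ugt1a gene is measured.

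Among the sulfotransferases, Sult1e1, which sulfates estrogens and is scarce in the liver of male mice, was the member with the largest mean difference upwards at day 14. Its signal was 623, 871, 6728, 1525 and 402 in diclofenac livers, against 558, 141, 115, 232 and 175 in saline livers. All diclofenac livers except replicate 5 lay above every saline liver, and replicate 3 was highest. The log2 difference was 2.51 (standard error 0.68, adjusted p = 0.236, limma), with a two-sided exact permutation p of 0.0159. Without replicate 3 it was 1.89 (adjusted p = 0.0755, limma). At days 1 and 3 the gene lay below the median of most arrays and was not tested, with 4.28, 249 and 17.4 in diclofenac and 5.34, 30.5 and 4.27 in saline livers at day 1. At day 3 its signal was 16.6, 114 and 62.2 in diclofenac livers, against 8.81, 8.61 and 2.86 in saline livers. These day 3 livers did not overlap, but signals this low have no detection call.

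Sult2a8, a liver sulfotransferase of bile acids and steroids, was lower without overlap at days 1 and 3. At day 3 the highest diclofenac liver (31356.7) and the lowest saline liver (31367.7) were nearly level. At day 1 its signal was 30901, 11322 and 31365 in diclofenac livers, against 33685, 35415 and 36542 in saline livers. At day 14 it was 18482, 20430.4, 1129.9, 24619.7 and 29659 in diclofenac livers, against 31706, 28768, 20768, 32511 and 26154 in saline livers. Replicate 3 was far below every other liver of that day, and the other 4 diclofenac livers overlapped with saline. The log2 difference was -0.66 at day 1, -0.12 at day 3 and -1.14 at day 14 (adjusted p = 0.351, 0.918 and 0.592, limma). Without replicate 2 of day 1 it was -0.18 at day 1, and without replicate 3 of day 14 it was -0.27 at day 14. Sult1a1, the main sulfotransferase of phenols, was above saline at day 3, with 27281, 23947 and 24006 in diclofenac livers against 20769, 21465 and 16612 in saline livers. The livers did not overlap, and the log2 difference was 0.36 (adjusted p = 0.523, limma), against 0.08 at day 1 and -0.25 at day 14 (-0.18 without replicate 2 of day 1 and -0.0480 without replicate 3 of day 14).

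Sult1d1, which acts on catecholamines, differed by 0.34 at day 1, 0.17 at day 3 and -0.17 at day 14 on the log2 scale, and at day 14 replicate 3 had 9095 where the other diclofenac livers had 25536 to 37645. Without replicate 3 the day 14 difference of Sult1d1 was 0.17, and without replicate 2 of day 1 that of day 1 was 0.13. Sult1c2 had the largest mean difference of the class downwards at day 1, -1.62 (standard error 0.65, adjusted p = 0.343, limma). Its signal was 127, 20.7 and 284 in diclofenac livers, against 263, 288 and 289 in saline livers, so that 1 diclofenac liver lay within the saline range. Without replicate 2 the day 1 difference of Sult1c2 was -0.56. At day 14 it was -0.57, and 0.33 without replicate 3. At day 3 its livers did not overlap, with 138, 157 and 178 in diclofenac and 194, 244 and 187 in saline livers. Sult1b1, an enzyme of thyroid hormone sulfation, had log2 differences of -0.42, 0.01 and 0.11, and Sult5a1 0.06, -0.20 and 0.63 at days 1, 3 and 14. Sult1c1, Sult2a2, Sult2b1, Sult3a1, Sult4a1 and Sult6b1 were too low to test on every day. Sult3a1, which is predominant in female mouse liver, had 19.4, 62.2, 125, 48.7 and 34.7 in diclofenac livers at day 14, against 6.78, 2.19, 14.4, 31 and 2.5 in saline livers.

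Among the glutathione transferases, Gsta2 and Gsta4 of the alpha class had the largest mean differences at days 1 and 14. Gsta2, a cytosolic alpha enzyme that reduces lipid peroxides, had at day 1 a signal of 1904, 452 and 2943 in diclofenac livers, against 3780.3, 8687 and 4913 in saline livers. Day 14 signals were 1008, 818, 74.9, 1833 and 1142 in diclofenac livers, against 2480.1, 3388, 7355, 3419 and 5531 in saline livers. Every diclofenac liver lay below every saline liver on both days. At day 3 the livers overlapped, with 6768, 7681 and 8345 in diclofenac and 6834, 11294 and 5933 in saline livers. The log2 difference was -1.998 at day 1, 3.99-fold lower with diclofenac (standard error 0.53, adjusted p = 0.251), -0.03 at day 3 (adjusted p = 0.992) and -2.63 at day 14, 6.18-fold lower (standard error 0.72, adjusted p = 0.237, limma). The exact permutation p at day 14 was 0.00794, two-sided, the smallest that 5 against 5 allow. Without replicate 3 of the day 14 diclofenac group the difference was -1.84 (adjusted p = 0.0193, limma), and without replicate 2 of day 1 it was -1.20 at day 1 (adjusted p = 0.403, limma).

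Gsta4, which conjugates the lipid peroxidation product 4-hydroxynonenal, had 2277, 391 and 1754 in diclofenac livers at day 1, against 2961, 2946 and 3106 in saline livers. Day 14 signals of Gsta4 were 638, 379, 177, 1009 and 767 in diclofenac livers, against 1143, 1505, 2523, 1828 and 2341 in saline livers. The livers did not overlap on either day, as for Gsta2. Its log2 difference was -1.37 at day 1, -0.13 at day 3 and -1.83 at day 14 (adjusted p = 0.320, 0.957 and 0.152, limma). Without replicate 3 the day 14 difference was -1.45 (adjusted p = 0.0336, limma), and without replicate 2 of day 1 it was -0.59. Gsta3, a liver alpha enzyme that conjugates aflatoxin epoxide in mice, was 21764, 15256 and 27939 in diclofenac livers at day 1, against 28780.2, 30919 and 32134 in saline livers. At day 14 its livers overlapped, with replicate 3 at 2964 and the other diclofenac livers at 16518 to 23376, against 18028 to 24693 in saline livers. The probe set that Gsta2 shares with Gsta1 and Gm3776 differed by -1.71 at day 1, -0.00 at day 3 and -2.10 at day 14 on the log2 scale and did not pass on any day, while its average over the 3 days was -1.27 (adjusted p = 0.04999 in limma over probe sets), at the threshold.

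**Figure D2:**
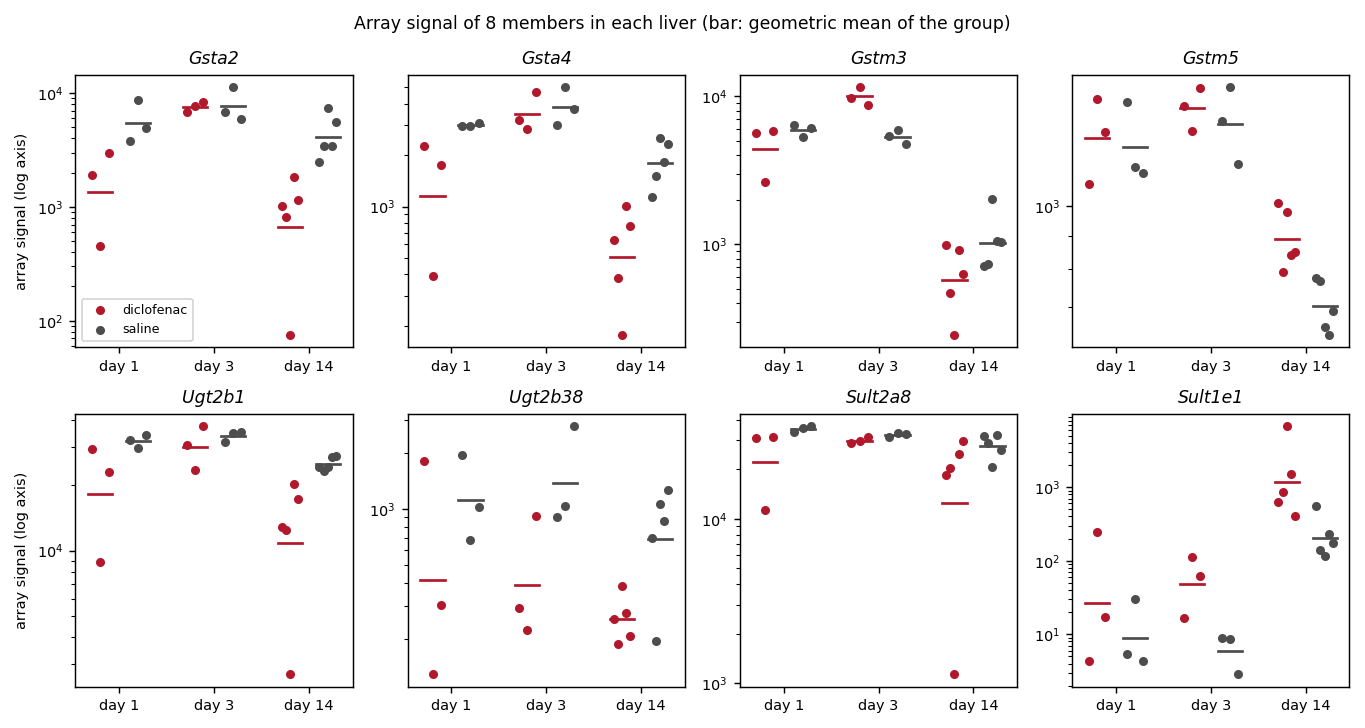
Array signal (vertical log axis) of selected members in every liver, with diclofenac livers left of saline livers at each day. For Gsta2, Gsta4 and Ugt2b1 the diclofenac livers lie below the saline livers at days 1 and 14, and for Sult1e1 at day 14 all but 1 diclofenac liver lie above them.

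Mu class genes differed in direction. Gstm3 was the member with the largest difference upwards at day 3, when its signal was 9788, 11544 and 8783 in diclofenac livers, against 5351, 5915 and 4745 in saline livers. The livers did not overlap and the log2 difference was 0.91 (standard error 0.24, adjusted p = 0.169, limma). It passed in a fit of day 3 alone (adjusted p = 0.00957) and without replicate 2 of day 1 (adjusted p = 0.00244, limma). A second probe set of Gstm3 had a difference of 0.11 at day 3, and the one used here may also hybridise to related Gstm transcripts. At day 1 the difference was -0.43 and at day 14 -0.83 (adjusted p = 0.469 and 0.476, limma), and they were -0.0541 without replicate 2 of day 1 and -0.52 without replicate 3 of day 14. Gstm6 went the way of the alpha genes at day 1, with 2279.7, 867 and 1936 in diclofenac livers against 3147, 3281 and 2768 in saline livers. Its livers did not overlap at day 1 and overlapped at day 14, where the log2 difference was -1.003 (adjusted p = 0.303), against -0.97 at day 1 (adjusted p = 0.257, limma). Without replicate 3 of day 14 it was -0.72 at day 14, and without replicate 2 of day 1 it was -0.54 at day 1.

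Gstm5 was the 1 member above saline without overlap at day 14. Its signal was 1013, 791, 981, 841 and 850.4 in diclofenac livers, against 775, 767, 653, 634 and 689.9 in saline livers. The log2 difference was 0.35 (standard error 0.11, adjusted p = 0.279, limma), and 0.05 and 0.08 at days 1 and 3. Gstm1, a mu enzyme abundant in liver, differed by -0.42 at day 1, 0.11 at day 3 and -0.54 at day 14 on the log2 scale, with its lowest diclofenac livers at 14456 (replicate 2 of day 1) and 5728 (replicate 3 of day 14), and by -0.0215 at day 3 with quantile normalization. Without these livers its differences were -0.0705 at day 1 and -0.26 at day 14. Gstm2 had differences of -0.00, 0.41 and -0.23 at days 1, 3 and 14, and without these livers 0.16 at day 1 and -0.13 at day 14. Gstm4 and Gstm7 lay between -0.45 and 0.13 on all days.

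Of the other GST classes, the pi class gene Gstp1 and the membrane-bound Mgst1 differed little. Gstp1 differed by -0.05 at day 1, 0.18 at day 3 and -0.21 at day 14 on the log2 scale, and its signal at day 14 was 62646, 48692, 54172, 65065 and 56511 in diclofenac livers, against 66367, 51868, 60419, 78063 and 77418 in saline livers. Replicate 3 was not low for Gstp1. For Mgst1, which acts in microsomal and mitochondrial membranes, the differences were 0.00, 0.14 and 0.13, and replicate 3 of day 14 had the highest signal, 99764. With quantile normalization they were -0.0635, -0.0390 and -0.0526, and the day 3 difference of Gstp1 was -0.00826, so that the direction of these genes is not settled. Gstt1, a theta enzyme that acts on small halogenated compounds, had -0.45, 0.08 and -0.62, and Gstt3, also of theta class, -0.93, 0.69 and -0.31 (adjusted p at day 1 = 0.322, limma). Without replicate 2 of day 1 the day 1 differences were -0.33 for Gstt1 and -0.72 for Gstt3, and without replicate 3 of day 14 those of day 14 were -0.27 and 0.0764. Gstt3 was 999.7, 821 and 1629 in diclofenac livers at day 1, against 2051, 2463 and 1847 in saline livers, without overlap, and at day 3 it was 2906, 3705 and 2404 in diclofenac and 1851, 3108 and 1074 in saline livers. Mgst3, another membrane-bound enzyme, had 325, 312, 223, 317 and 532 in diclofenac livers at day 14, against 462, 709, 659, 488 and 621 in saline livers. These overlapped in 1 diclofenac liver, and the log2 difference was -0.82 (standard error 0.21, adjusted p = 0.229, limma). Gstk1 of mitochondria and peroxisomes, Gsto1, which reduces dehydroascorbate, Gstz1 of tyrosine breakdown, Gstp3 and Gstt2 had differences of -0.86 to 0.01 over the 3 days. Gsto2, Gstt4 and Mgst2 were too low to test.

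The lower signals at days 1 and 14 were unequal between livers. Replicate 2 of the day 1 diclofenac group was the lowest of its 3 livers in 27 of 36 members (75%), against 39.5% of all genes tested, and 15 of 36 were over 2-fold below the saline mean there, against 7.04% of all genes. Its median log2 deviation from the saline mean was -0.89 for UGT, -0.40 for SULT and -0.70 for GST genes, where replicate 1 had -0.02, -0.30 and -0.14 and replicate 3 had -0.21, -0.03 and -0.07. Replicate 3 of day 14 was lowest of its 5 livers in 29 of 37 members (78.4%), against 36.1% of all genes tested, and 24 of 37 were over 2-fold below the saline mean, against 10.9% of all genes. Its medians were -1.17 for UGT, -1.08 for SULT and -1.62 for GST genes, and those of the other 4 livers were -0.28 to 0.15 for UGT, 0.00 to 0.52 for SULT and -0.44 to -0.09 for GST genes. The GST median was thus below 0 in all 5 livers of day 14.

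**Figure D3:**
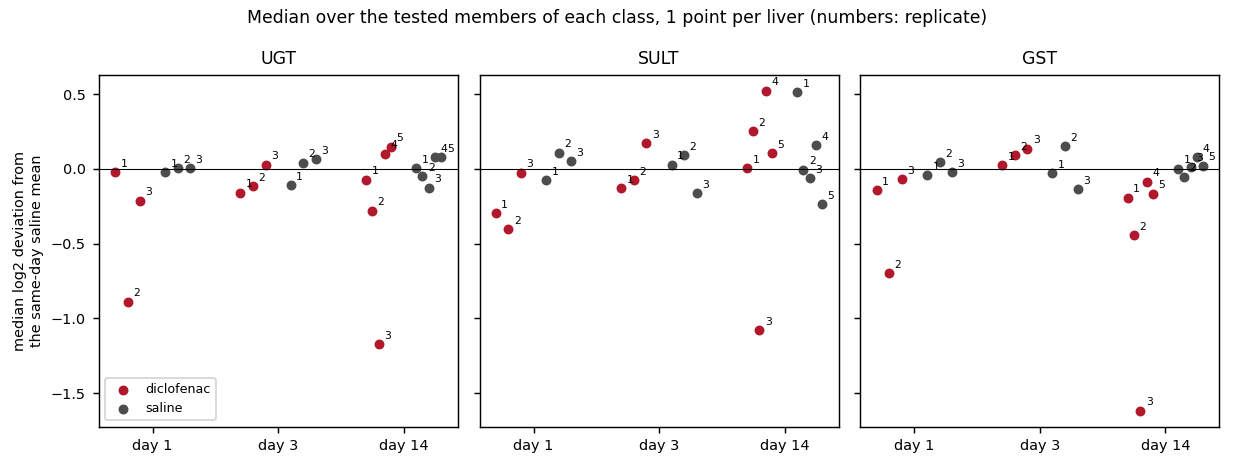
Median log2 deviation of the tested members of each class from the saline mean of the same day (vertical axis), 1 point per liver with its replicate number, diclofenac left of saline, at days 1, 3 and 14. Replicate 2 of day 1 and replicate 3 of day 14 lie lowest in each class, at -1.62 for the GST genes in the second of these.

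Neutrophil markers were highest in the same livers. The sum of the 8 neutrophil markers was 1641, 25702 and 1891 in the diclofenac livers of day 1, against 1088, 672 and 805 in saline livers. At day 3 it was 3528, 3153 and 2084 in diclofenac livers and 605, 537 and 418 in saline livers. At day 14 it was 2242, 2780.1, 24393, 1449.8 and 759 in diclofenac livers, against 505, 555, 379, 494 and 327 in saline livers. At day 3 the sum in every diclofenac liver was above that of every saline liver, but far below the 25702 and 24393 of days 1 and 14. Replicate 3 of day 14 also had the lowest sum of periportal hepatocyte markers, 57594, against 103972 to 118880.0 in the other diclofenac livers. The livers with the highest neutrophil sums had hepatocyte marker sums of 308732 at day 1 and 605550.0 at day 14. That sum includes Fgb, which is also an acute phase gene, so it cannot show whether hepatocytes were lost. The sum of 14 acute phase genes was 601099 and 1265070.0 in these livers, the highest of each day. The arrays of these livers also had the highest hybridisation control signals, 12.15 at day 1 and 12.147 at day 14 on the log2 scale. The other arrays had at most 12.048. Replicate 3 of day 14 also had the highest 18S control signal, 16.147. The part of these cells, of the acute phase and of array handling in the results was not tested.

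Without replicate 2, 7 of 36 members had an unadjusted limma p under 0.05 at day 1, all lower, against 7.14% of all genes, and the median difference of members was -0.14. Without replicate 3 of the diclofenac group, 12 of 37 had one at day 14 (8 lower and 4 higher), against 13.2% of all genes. In that fit 1.05% of all genes passed the adjusted threshold, and 3 members did, Gsta2, Gsta4 and Ugt2b1, all lower with diclofenac. Since the liver left out was picked from the values of these same members, this is not a separate test of them.

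**Figure D4:**
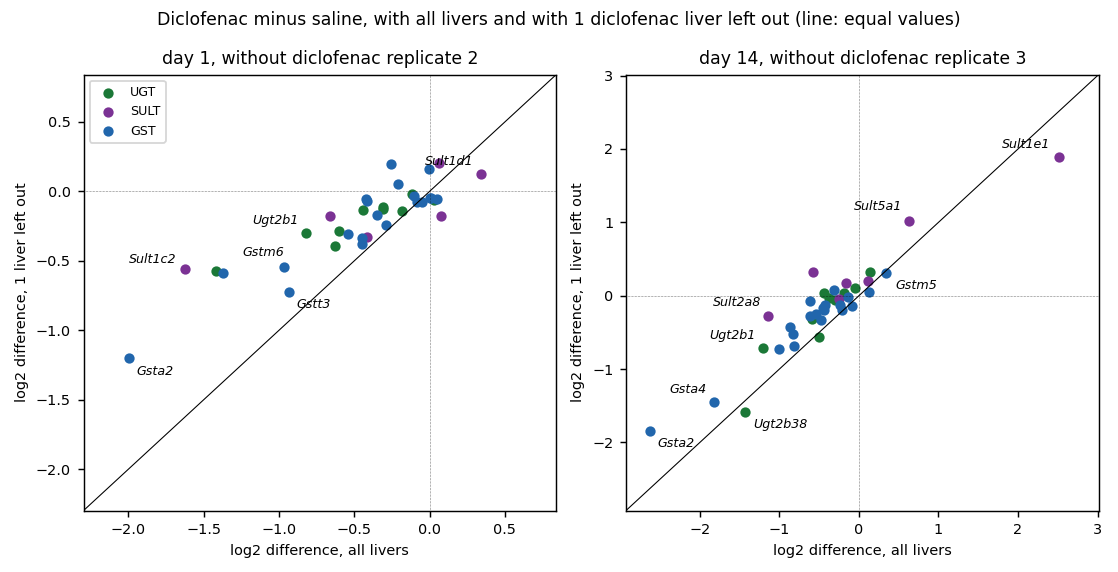
Log2 difference of each tested member in all livers (horizontal axis) and after 1 diclofenac liver was left out (vertical axis), for replicate 2 at day 1 and replicate 3 at day 14, with the line of equality. Most points lie above the line, that is, they were higher without that liver, and Gsta2 at day 14 stayed at -1.84.

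The change between days was tested in the same models. From day 1 to day 3, 6 of 36 members had an unadjusted limma p under 0.05, all in the direction of a higher effect at day 3, against 5.39% of all genes (2.68% in that direction) and with 0% of all genes past the adjusted threshold. Gstt3 had a difference between the effects of 1.62 (adjusted p = 0.881) and Gstm3 of 1.33, and no member passed (limma). Day 14 against the mean of days 1 and 3 gave an unadjusted p under 0.05 for 3 of 37, all lower and all GST genes, against 6.45% of all genes (3.35% lower). No member passed there either, when 0.0225% of all genes did. In the mean of the effects of days 1 and 3, where 0.675% of all genes passed, and between the saline livers of day 3 and day 1, where 0.217% passed, no member did (limma). The average over the 3 days was lower with diclofenac for 8 and higher for 1 of the 9 of 37 members with an unadjusted p under 0.05, against 18.5% of all genes (8.79% lower and 9.72% higher). Of these, Gsta4 (-1.11, adjusted p = 0.0607), Sult1e1 (2.37, 0.0617), Gstm6 (-0.72, 0.0684) and Gsta2 (-1.55, 0.0725, limma) had adjusted p values under 0.1. The Sult1e1 average takes in days 1 and 3, when its signal lay below the median of most arrays and was too low to test alone. Without replicate 3 of the day 14 diclofenac group, 6 members passed in this comparison, Gsta2, Gsta4, Gstm6, Ugt2b1, Ugt2b38 and, higher with diclofenac, Sult1e1, where 4.04% of all genes passed.

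Genes that supply the cosubstrates or handle the products did not pass on any day. Of all genes tested, 0% passed at day 1, 0.202% at day 3 and 0% at day 14. Of 10 tested genes for UDP-glucuronic acid supply and glucuronide hydrolysis, none was called, and an unadjusted p under 0.05 was seen for 0 higher and 2 lower at day 1 and for 3 higher and 1 lower at day 3. The 13 tested genes of PAPS supply, 15 of glutathione synthesis, 10 of mercapturic acid formation and 17 regulators likewise had 0 calls at days 1, 3 and 14 and over the average of the 3 days. Of the regulators, Ghr, the growth hormone receptor, fell in the mean of days 1 and 3 (-0.37, adjusted p = 0.0483, limma). Of the mercapturic acid genes, Anpep, an aminopeptidase, fell between the saline groups, with a day 3 minus day 1 difference of -1.16 (adjusted p = 0.0351, limma). Gclc, the catalytic subunit of the first step of glutathione synthesis, had a log2 difference of -0.73 at day 1 (adjusted p = 0.314), and Ugdh, which makes UDP-glucuronic acid, had 0.37 at day 3 (adjusted p = 0.254, limma). These 2 genes were chosen after their values were seen. Genes known to differ by sex in mouse liver were set here beside Sult1e1 and Sult3a1. Of 6 tested male and 5 tested female genes, 0 passed on days 1, 3 and 14, against 0%, 0.202% and 0% of all genes. The median log2 differences on these days were -0.81, -0.39 and -0.32 for the male genes and -0.15, 0.03 and -0.73 for the female genes. An unadjusted limma p under 0.05 was seen for 1, 0 and 2 male genes, all lower. For female genes there were 0 at day 1, 1 higher at day 3 and 1 lower at day 14. Of 14 acute phase genes, 12 at day 1, 13 at day 3 and 13 at day 14 were higher with an unadjusted limma p under 0.05. This compares with 13%, 10.8% and 10.8% of all genes in either direction. Their median log2 differences were 1.46, 1.38 and 2.11. The adjusted threshold was passed by 4 of 14 at day 3, among them Saa2 (4.85), Lcn2 (4.21) and Saa1 (2.61, adjusted p = 0.0215, limma), against 0.202% of all genes. It was passed upwards by 7 of 14 in the mean of days 1 and 3 (0.675% of all genes) and by 10 of 14 in the average over the 3 days (1.68%). In the same 2 comparisons 2 and 3 of 7 tested neutrophil markers rose, and 1 of 5 stellate cell markers, Reln, fell in both. Of the 6 hepatocyte markers, 1, Tat, rose between the saline groups (day 3 against day 1).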

How the data were processed

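Total RNA of 22 livers was hybridised to Affymetrix Mouse 430 2.0 arrays. The authors summarised each probe set with MAS5 and deposited linear signal intensity values, brought to a common array mean after trimming 2% at either end; no detection calls or scan dates were used. Scaling of this kind assumes that the bulk of genes is level between arrays, and MAS5 signals of dim probe sets are imprecise. No column was left unused (0).

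Probe sets with 1 gene symbol were kept (34958; 932 had several and 9211 none), and the probe set with the highest mean log2 intensity stood for its gene. Genes above the array median in at least 3 arrays of a model were tested in limma 3.58.1 (R 4.3.3) by empirical Bayes with trended variance, in 1 model for days 1 and 3, 1 for day 14 and 1 of all 22 arrays for averages over days. Tests were two-sided, with Benjamini-Hochberg adjustment over all genes tested. Exact permutation tests counted all splits of the livers of 1 day. The number of arrays limits the precision, and p-values measure the spread between these livers. The procedure was tested on simulated data. Tables were made with Python 3.11.15, pandas 2.3.3 and numpy 2.4.6.

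Of 67 coding genes of RefSeq that fit the symbols, 21 had no probe set of their own; 5 probe sets shared by several genes were fitted apart. The members and gene lists were chosen with earlier results of these data known. Members named are those that pass a test, up to 3 per class, day and direction whose livers do not overlap, those the study names, and those set for their role; pathway genes other than acute phase genes are named where they pass, and Gclc and Ugdh were named after their values were seen. Alternatives were other filters, quantile normalization, centring, an added array median, other rules for probe sets, other sets of arrays, array weights, a replicate block, the methods' t-test, other thresholds and leaving out each array. The labels do not state whether replicate numbers pair the mice, and the main fits treated the livers as unpaired. The deviations of same-numbered livers from their group means correlated over 0.1 in 1 of 11 pairs, which cannot decide the question. Columns of fold changes by the authors were not used here.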

Additional observations from a re-analysis of the deposited data

Results flagged for a closer look

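In 10 of 48 groups of 5 livers examined at day 14, the lowest liver lay apart from the other 4 by a gap large against the range of the group; chance alone gives this in about 1 in 20 groups. In 9 of the 10 it was replicate 3 of the diclofenac group, so that these are not separate observations.

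For Gsta2 this liver had a signal of 74.9, against 818 to 1833 in the other diclofenac livers. For Gstt1 it had 1705, against 4724 to 7149. Ugt2b1 had 2691, against 12496 to 20225, and Ugt2b35 had 5034, against 10438 to 12901. Ugt2b36 had 5885, against 25548 to 33355. Sult1d1 had 9095, against 25536 to 37645, and Sult2a8 had 1129.9, against 18482 to 29659. Sult1c2 had 3.93, against 67.4 to 115, and in saline livers its lowest signal, replicate 1, was 17.4, against 90.4 to 133 in the others. The median log2 deviation of GST members was -1.62 in the same diclofenac liver, against -0.44 to -0.09 in the others. The neutrophil marker sum and the array control signals of that liver are given with the results, and their part in these values was not tested.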

How the results depend on the processing

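A single liver of day 1 and a single one of day 14 carry much of the lower signals. The ribosomal RNA control signals differ by day, and whether array handling did too is not known. Dim members have no detection call. Over the alternatives other than leaving out 1 liver, the values of named members kept direction and side of the threshold in 840 instances, passed it in 25 and turned direction in 28, and summaries kept theirs in 196 and moved in 23. The threshold was that of each alternative. Of the 25, 6 passed the methods' t-test rule and 8 the rule of unadjusted p under 0.01 with 1.5-fold. Another 4 came from leaving out both apart-standing livers. The SULT median at day 1 became 0.0773 without a filter, and 0.0648 both with every probe set on its own and in a single model of the 22 arrays. No member passed in the main fits. With quantile normalization 1 member passed between the saline groups of days 3 and 1, as it did with every probe set on its own. With the array median added, 2 passed in the average of the 3 days, and 2 with the replicate block, the only place where the block changed a count. With each day on its own arrays 1 passed at day 3, and in a single model of the 22 arrays 3 did at day 14. With array weights 1 passed at day 3, 3 at day 14, 5 in the average and 1 between saline groups. The share of all genes that passed in these alternative fits is not given here, so the counts cannot be read as particular to the members. The methods' t-test (p under 0.05 and over 1.5-fold) called 0 at day 1 (1.46% of all genes), 1 at day 3 (2.49%) and 6 at day 14 (2.39%), and an unadjusted limma p under 0.01 with 1.5-fold called 3, 1 and 6 (1.92%, 2% and 1.73%).

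Some directions turned. With quantile normalization Mgst1 was -0.0635, -0.0390 and -0.0526 at days 1, 3 and 14, and at day 3 Gstm1 was -0.0215, Gstp1 -0.00826, Ugt2b36 -0.0633 and Ugt2b5 -0.13. With centred arrays Gstm2 was 0.00527 at day 1, and Ugt2b36 -0.00276 and Ugt2b5 -0.0304 at day 3. With the mean of all probe sets Mgst1 was -0.00884 at day 1 and -0.17 at day 14. With array weights Gstm2 was 0.0671, Mgst1 -0.0416 and Sult1a1 -0.0585 at day 1, and Gstt3 was 0.10, Sult1c2 0.14, Sult1d1 0.18 and Ugt2b35 0.0511 at day 14. The cause was not tested.

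Leaving out 1 liver at a time, the members past the threshold ranged from 0 to 1 at day 3, 0 to 3 at day 14, 0 to 1 in the mean of days 1 and 3, 0 to 6 in the average and 0 to 1 between saline groups. The share of all genes past it was 0% to 1.4% at day 3 and 0% to 1.05% at day 14. It was 0.125% to 2.56% in the mean of days 1 and 3. In the average it was 0.814% to 4.04%, and between saline groups 0% to 0.941%. Class medians ranged, at days 1, 3 and 14, from -0.54 to -0.14, -0.15 to -0.0477 and -0.56 to -0.0439 for UGT, from -0.33 to -0.12, -0.10 to 0.00936 and -0.31 to 0.20 for SULT, and from -0.51 to -0.0767, 0.0177 to 0.17 and -0.60 to -0.19 for GST genes. At day 1 the ranges were -0.14 to 0.16 for Gstm2, -0.0546 to 0.16 for Gstm5, -0.0987 to 0.0131 for Gstp1, -0.0502 to 0.0638 for Mgst1 and -0.18 to 0.32 for Sult1a1. At day 3 they were -0.21 to 0.25 for Gsta2, -0.35 to 0.0626 for Gsta4, -0.0216 to 0.18 for Gstm5, -0.00926 to 0.21 for Gstt1 and -0.0275 to 0.0790 for Ugt2b5. At day 14 they were -0.59 to 0.0764 for Gstt3, -1.08 to 0.33 for Sult1c2, -0.34 to 0.17 for Sult1d1, -0.30 to 0.0426 for Ugt2b35 and -0.59 to 0.0374 for Ugt2b36. In the average, 4 members passed without diclofenac replicate 1 of day 1 (2.56% of all genes) and 2 without replicate 3 of day 1 (2.23%). There was 1 without diclofenac replicate 3 of day 3 (1.84%). For the day 14 diclofenac group, 6 members passed without replicate 3 (4.04%) and 2 without replicate 4 (2.26%). There was 1 each without its replicates 1 (1.68%) and 5 (1.94%), and 1 without saline replicate 2 of day 14 (1.47%). In the mean of days 1 and 3, 1 passed without each diclofenac liver of day 1 in turn (Ugt2b38, Gstm3 and Ugt2a3). In these fits 1.68%, 1.07% and 2.56% of all genes passed. Without replicate 2 of these livers, Gstm3 passed at day 3 (1.4% of all genes) and Gstz1 between saline groups (0.941%). With both apart-standing livers left out, chosen after seeing the data, 1 member passed at day 3 (1.4% of all genes) and 1 in the mean of days 1 and 3 (1.07%). There were 3 at day 14 (1.05%), 4 in the average (2.77%) and 1 between saline groups (0.941%). In that fit Gstm2 was 0.16, Gstm5 -0.0546, Mgst1 -0.0502 and Sult1a1 -0.18 at day 1, and Gstt3 0.0764, Sult1c2 0.33, Sult1d1 0.17, Ugt2b35 0.0426 and Ugt2b36 0.0374 at day 14.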
